A study of Bos taurus with 18 samples.

Results

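The gestation length (GL) window on Bos taurus chromosome (BTA) 19 reaches from position 27773281 to 29773281 (UMD 3.1), 1 Mb to each side of the lead variant of a genetic association peak at position 28773281. The window contains 3 genes that the study fine-mapped, namely DNAH2 (28025433 to 28134630), which encodes a heavy chain of the dynein motor of the sperm tail, NDEL1 (28619753 to 28679896), which encodes a partner of cytoplasmic dynein, and MYH10 (28679649 to 28801223), which encodes a non-muscle myosin heavy chain and holds the lead variant. The DNA around these genes was examined here. It was divided into tiles of 2000 bp, tiles touching one of the 3 genes or the 2000 bp on either side of it were left out, and a tile was kept when at least 9 of 18 bulls list a CpG position in it. Of 1001 tiles overlapping the window, 152 touched a gene or its flank, 10 of the others were listed in too few bulls, and 839 remained, out of 1186985 tiles listed in at least 9 bulls in the whole genome.

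The bulls were adult Holsteins, and sperm DNA was sequenced after bisulfite treatment, which converts unmethylated cytosines so that the percent of reads keeping a cytosine measures the methylation level of a position. The labels grade 16 bulls as high or low for 1 or more traits, and no bull was treated. In the paper, bulls were chosen for GL, SCE, BDE and CCR by their predicted transmitting ability, which is a breeding value. The high-GL bulls were H03, H09, L03 and L05 and the low-GL bulls H02, H05, L01 and L07. For sire calving ease (SCE) the high bulls were H03, H07 and L02 and the low bulls H01, H06 and L09, for body depth (BDE) H02, L03 and L08 (high) against H05, H09 and L02 (low), for cow conception rate (CCR) H08, H09 and L06 (high) against H06, L08 and L09 (low), and for sire conception rate (SCR) H01, H02 and H03 against L01, L02 and L03. Bulls H04 and L04 carry no grade and are given by value only. Bulls were therefore shared between traits, and the 5 comparisons were not independent of one another.

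Mature sperm DNA is highly methylated over most of the genome, whereas CpG-dense promoters are mostly free of methylation. Cytosines on both strands of a CpG carry the mark, and the files list them as separate positions. A position was listed when at least 10 reads covered it, and the number of listed positions in the 839 tiles ranged from 1436 in H01 to 28090 in H08, with a median of 7976.5 over the 18 bulls. Per 1000000 positions listed genome-wide, these tiles held between 443 in H05 and 1329 in H09, and H01 listed at least 1 position in only 445 of the 839 tiles. Of 38550 distinct positions, 21.4% were listed in a single bull and 33 in all 18, so that the value of a tile rests on different positions in different bulls. In the 6 bulls whose coverage is listed, the median was 11 reads per position, and the depth of the other 12 is unknown. At 10 reads, an exact 95% binomial interval reaches up to 30.8% for a position read as 0% and down to 69.2% for one read as 100%, for counting error only.

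Most of the window was highly methylated. The median over bulls was above 80% in 699 tiles (83.3%), between 20 and 80% in 95 (11.3%), and below 20% in 45 (5.36%). The rest of BTA19 held 82.5% high, 13.5% intermediate and 4.0% low tiles (29666 tiles), and the autosomes outside the window 83.0%, 14.7% and 2.25%. Low tiles contained more distinct listed positions, with a median of 82 against 47 in intermediate and 41 in high tiles. The classes differed in how far bulls lay apart. Over tiles listed in all 16 graded bulls, the SD between bulls had a median of 3.43 percentage points in 281 high tiles, 17.2 in 22 intermediate tiles and 8.63 in 10 low tiles. A class is set by the median of the same values. Bulls also list different positions in a tile, so this SD is not only variation at the same CpG.

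The 3 genes divided the window into 3 stretches with different methylation. Before DNAH2 (27772001 to 28022000) lay 122 tiles, of which 10 were low. Between DNAH2 and NDEL1 (28138001 to 28616000) lay 235 tiles, of which 29 were low, 53 intermediate and 153 high. Beyond MYH10 (28804001 to 29774000) lay 482 tiles, of which 6 were low and 451, or 93.6%, were high. In the RefSeq order of genes on the ARS-UCD2.0 assembly, which is not the build of the files and was used for names only, 53 genes stand between DNAH2 and NDEL1. They include 28 protein-coding genes, such as KDM6B (a histone demethylase), CHD3 (a chromatin remodeller), the lipoxygenase genes ALOX15B, ALOX12B and ALOXE3, HES7 (a clock gene of the segmenting embryo), PER1 (a circadian clock gene), VAMP2 (a vesicle fusion protein) and AURKB (a mitotic kinase), and 18 transfer RNA genes. The next genes after MYH10 include CCDC42, PIK3R5, NTN1 (a guidance cue of growing axons), STX8, GLP2R and GAS7. Which tile belongs to which of these genes was not determined, since the files' build has no annotation here.

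**Figure D1:**
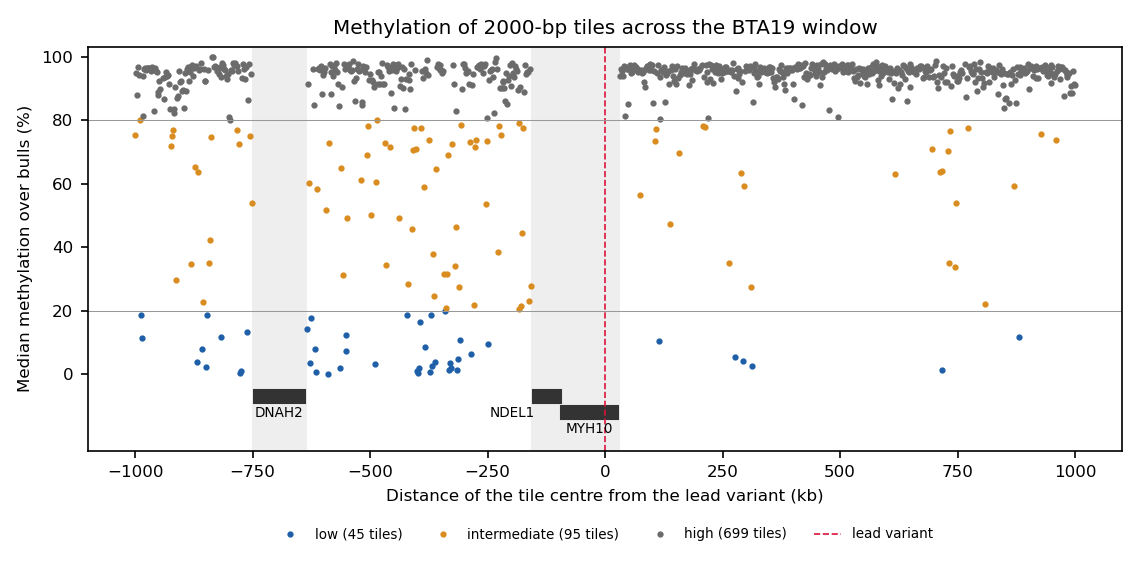
Median methylation over bulls (%) of each of the 839 tiles against the distance of its centre from the lead variant (kb). Grey bands mark the 3 genes with their flanks, and grey lines mark 20 and 80%. Low tiles number 29 between DNAH2 and NDEL1 but 6 beyond MYH10, where 93.6% of tiles are high.

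Mean methylation per bull was compared between stretches over tiles listed in all 16 graded bulls. The stretch between DNAH2 and NDEL1 had 77.4% ± 1.5 (SD, n = 16 bulls, 63 tiles), with H09 lowest at 75.0% and L08 highest at 80.1%. The stretch beyond MYH10 had 92.3% ± 0.691 (SD, n = 16, 208 tiles), from 90.9% in L06 to 93.4% in H06. The ranges did not overlap, and the former was lower in 16 of 16 bulls by 10.9 to 17.1 points, with a mean difference of -15.0 ± 1.69 (SD). An exact sign permutation test over bulls gave an adjusted p of 3.05e-05, the smallest value 16 bulls allow. The stretch before DNAH2 had 83.8% ± 1.37 (SD, n = 16, 42 tiles) and was also lower than the stretch beyond MYH10 in 16 of 16 bulls, by 8.58 ± 1.34 points on average (SD, exact sign permutation test, adjusted p = 3.05e-05). With at least 3 listed positions per tile and bull, a setting added after the data were seen, the mean difference was -4.71 points (exact sign permutation p = 3.05e-05).

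**Figure D2:**
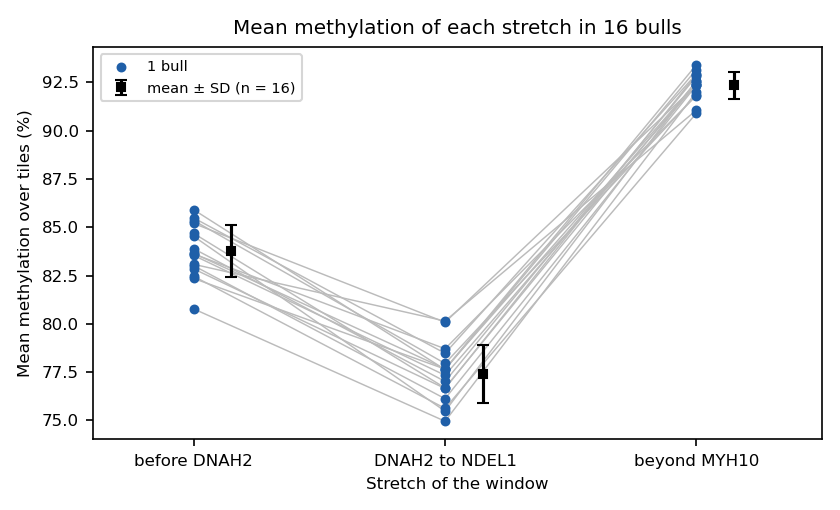
Mean methylation (%) of the tiles of each stretch, with 1 point per bull, grey lines joining the values of a bull, and squares with bars for the mean ± SD of 16 bulls. Values lie between 75.0 and 80.1% from DNAH2 to NDEL1 and between 90.9 and 93.4% beyond MYH10, without overlap.

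The low tiles formed 31 runs of adjacent tiles, 21 of them a single tile long. Runs of 3 or more tiles numbered 3, and all of them lay between DNAH2 and NDEL1. The longest (28372001 to 28380000) held 4 tiles with medians from 0.385 to 16.4%. Its first tile was listed in all 18 bulls and ranged from 0% in H01 and H07 to 4.0% in L08, with an SD of 1.05 points between the graded bulls, and its last tile, at the edge of the run, ranged from 2.00% in H05 to 43.9% in L08. The run from 28400001 to 28406000 had medians of 0.732, 18.8 and 2.75% in its 3 tiles. In the tile from 28404001, 17 bulls had values between 0.333 and 11.1%, and L08 had 37.5%, from 2 positions. The run from 28440001 to 28446000 had medians of 1.33, 3.55 and 2.12%, and no bull exceeded 8.21% in any of its tiles. The lowest median of a tile listed in all 18 bulls before DNAH2 was 1.21%, from 27998001 to 28000000. Values there were 0% in H01, H02, H05, H09 and L08 and reached 15.0% in H07, which lists 2 positions.

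The tiles closest to the lead variant lay at the edges of the MYH10 and NDEL1 block. On the MYH10 side, the 3 nearest tiles (28804001 to 28810000, the first 30720 bp from the variant) were high, with medians of 94.0, 96.1 and 95.5%. The lowest value in any bull was 83.8% in H09 at the first tile, from 3 positions. On the NDEL1 side, the 3 nearest tiles alternated. The tile from 28610001 had a median of 22.9% (17 bulls, 10% in H03 to 60% in L02), the tile from 28612001 one of 96.2%, and the tile from 28614001, 157281 bp from the variant, one of 27.7% (18 bulls, 6.67% in H04 to 91.7% in H07). None of the 6 was a differentially methylated region (DMR) for GL, and the GL difference over pooled reads ranged from -1.05 to 7.59 points. With each bull weighted equally it ranged from -3.68 to 18.3. It was then 0.392 instead of 7.59 in the tile from 28610001, 18.3 instead of 4.25 in that from 28614001, where L03 had 90% from 1 position, and -3.68 instead of -1.03 in that from 28804001. The tile from 28614001 was a DMR for 2 other traits, with losses of -22.9 points for CCR and -23.9 for SCE, which were -5.25 and -8.17 at matched positions. With equal weights the CCR difference was -26.8, without overlap between groups, and the SCE difference -2.88. High and low CCR bulls did not overlap in 71 of 624 tested tiles (11.4%). Of the 20 ways to arrange 6 bulls as 3 against 3, a share of 0.1 leaves no overlap. A genome share is not given for CCR.

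The window was compared with the rest of its chromosome and with the windows of 3 other GL peaks. Over tiles listed in all 16 graded bulls, the window had 88.2% ± 0.645 (SD, n = 16, 313 tiles) and the rest of BTA19 86.8% ± 0.815 (10627 tiles). The window was higher in 16 of 16 bulls, by 0.266 to 2.64 points and by 1.39 on average (exact sign permutation test, p = 3.05e-05). The size of this difference depended on the tiles used. It was 4.99 points with at least 3 listed positions per tile and bull, and 0.751 (exact sign permutation p = 0.000275) when tiles were weighted to the same classes of position number. The ungraded bulls differed by 0.113 (H04) and 1.61 points (L04). Of the 313 tiles used, 281 were high. Over all 839 tiles, the window held a larger share of low tiles than the rest of BTA19 (5.36 against 4.0%). The sign permutation test, here and between stretches, measures how steady a difference is over bulls for a fixed set of tiles. Other windows of BTA19 were not drawn, so it does not show that the window stands out on its chromosome. The BTA7 window had 82.2% ± 0.697, the BTA18 window 63.3% ± 2.19 and the BTA14 window 48.0% ± 4.18 (SD, n = 16). The BTA19 window was higher than each of them in 16 of 16 bulls, by 5.99 ± 0.585, 24.9 ± 2.18 and 40.2 ± 3.90 points (SD, exact sign permutation test, adjusted p = 3.05e-05 for each of 3).

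Whether methylation of the window differed between high and low bulls was asked with 1 mean per bull, over the tiles listed in every bull of a comparison. For GL, the values were 86.3% in H03, 85.1% in H09, 86.7% in L03 and 85.7% in L05, against 86.3% in H02, 86.4% in H05, 86.3% in L01 and 86.3% in L07. The low-GL values lay within the range of the high-GL values. The difference was -0.376 points over 626 tiles (85.9 ± 0.701 against 86.3 ± 0.0419, SD, n = 4 each, exact permutation test, p = 0.343, adjusted over 5 traits p = 0.667). It was -0.174 without H09. It turned to 0.748 over the 130 positions listed in all 8 bulls (exact permutation p = 0.2) and to 0.221 for the median over tiles. The CCR difference was -1.08 points (85.4 ± 0.936 against 86.5 ± 0.838, SD, n = 3 each, exact permutation p = 0.2). Differences were 0.0346 for SCE (exact permutation p = 0.9), 0.248 for BDE (p = 0.8) and -0.307 for SCR (p = 0.4), with n = 3 per group, and their groups overlapped. Over positions listed in every bull, the differences were -0.409 for CCR (334 positions, exact permutation p = 0.8), 0.918 for SCE (120, p = 0.3), 0.401 for BDE (159, p = 0.3) and 0.372 for SCR (112, p = 0.2). With 3 bulls against 3 the exact test cannot give less than 0.1, and with 4 against 4 not less than 0.0286. A p under 0.05 was thus out of reach for SCE, BDE, CCR and SCR, also with 1 bull left out. The same held for GL when only bulls with, or only bulls without, listed coverage were compared.

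**Figure D3:**
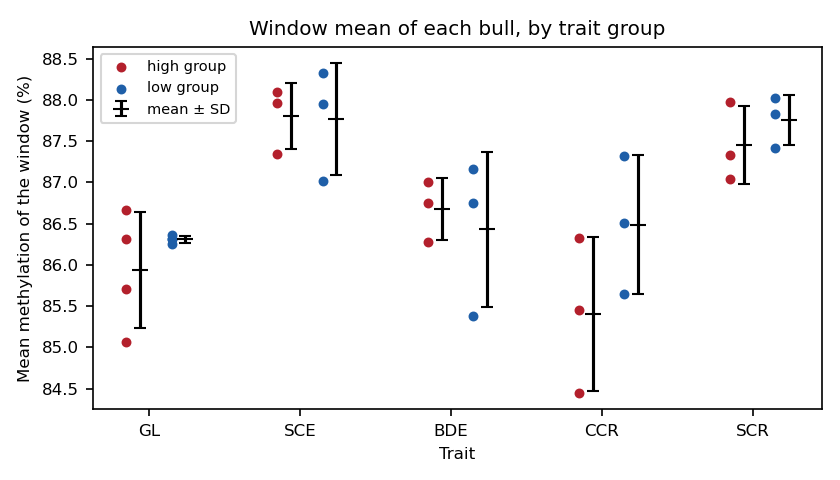
Mean methylation (%) of the window in each bull, by trait and group, with points for bulls and bars for the mean ± SD (n = 4 for GL, 3 for the other traits). Each trait has its own set of tiles, from 381 for SCE to 626 for GL, and high and low groups overlap in all 5 traits.

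Single tiles were then tested after the study's definition of a DMR, a q under 0.01 in a logistic regression of methylated and unmethylated reads and a difference over 5 points. For GL, 55 of 626 tested tiles (8.79%) were DMRs, 32 with a loss and 23 with a gain in high-GL bulls, against 8.75% of all tested tiles of the genome. The study itself called more GL DMRs among nearly the same number of tested regions. Here each position stood for an assumed 10 reads, except for SCR, and the reason for the lower count was not tested. Losses were the more numerous in the window, whereas the genome had 22263 losses and 29608 gains for GL, a contrast that was not tested. For SCE the count was 22 of 381 (5.77%, genome 6.18%), for BDE 53 of 565 (9.38%, genome 7.57%), for CCR 65 of 624 (10.4%, genome 11.1%) and for SCR 41 of 386 (10.6%, genome 8.68%). The shares of the window, both directions together, were thus close to those of the genome in each trait. The regression treats reads as independent and leaves out the spread between bulls. An F test with that spread and limma each called 0 tiles of the window and 0 of the genome in every trait. Before adjustment, 18 tested tiles for GL by the F test (2.88%, genome 3.47%) and 23 by limma (3.67%, genome 3.59%) passed p under 0.05 with over 5 points of difference. In the other traits the share was 1.57 to 3.01% by the F test (genome 2.46 to 2.89%) and 3.15 to 5.18% by limma (genome 3.3 to 3.84%).

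By methylation class, GL DMRs numbered 26 of 61 tested intermediate tiles (42.6%), 26 of 538 high tiles (4.83%) and 3 of 27 low tiles (11.1%). Over the genome the shares were 26.0, 5.86 and 14.2% in the same order. The stretch between DNAH2 and NDEL1, where intermediate tiles are common, held 20 GL DMRs among 149 tested tiles (13.4%), the stretch before DNAH2 5 of 81 (6.17%) and the stretch beyond MYH10 30 of 396 (7.58%). In 6 of the 55 DMRs the 4 high-GL bulls were all above or all below the 4 low-GL bulls. That held for 23 of the 626 tested tiles (3.67%) and for 3.3% of tiles in the genome.

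The differences were recomputed at matched positions, those with a value from both groups (1 bull or more in each), so that each position was compared with itself. Over the 55 GL DMRs the difference had a median size of 12.1 points over all listed positions and of 1.20 points, counted in the direction of the call, at matched positions. The direction was opposite at matched positions in 18 of the 55, and 14 kept it with more than 5 points. A test stratified by position called 6 of 626 tiles for GL (1.8% of tiles in the genome), 1 of 378 for SCE (genome 0.993%), 3 of 558 for BDE (1.25%), 7 of 624 for CCR (3.7%) and 1 of 386 for SCR (0.899%).

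**Figure D4:**
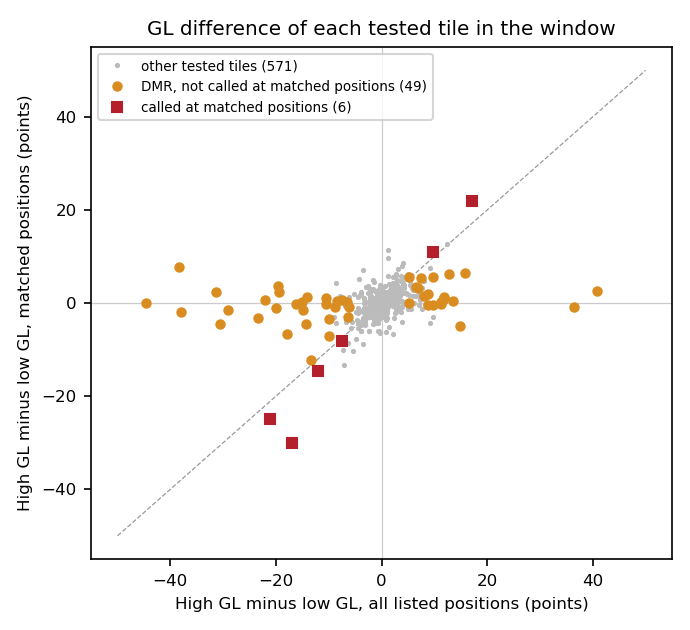
High-GL minus low-GL difference (percentage points) of each of 626 tested tiles over all listed positions (x axis) and at matched positions (y axis), with a dashed line of equal values. Of the 55 DMRs, 49 were not called at matched positions and many of them lie near 0 on the y axis, and 6 (squares) were called there.

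The tile with the largest GL difference, from 28930001 to 28932000 beyond MYH10, was singled out after its values were seen. It had 30.9% in H03, 29.3% in H09, 74.0% in L03 and 26.8% in L05, against 70.2% in H02, 76.3% in H05, 84.9% in L01 and 69.9% in L07, a difference of -44.6 points over all positions. At its 22 matched positions the difference was 0.0688. Its first 1000 bp had a median of 31.5% over 15 bulls and its last 1000 bp one of 82.2% over 16 bulls. L05 listed 37 positions in the former and 14 in the latter, whereas H02 listed 0 and 11. Within the first 1000 bp, H03 had 17.7%, H09 16.4%, L05 4.2% and L03 42.1%, against 62.5% in H05 (1 position), 49.3% in L01 and 39.1% in L07. Of the matched positions, 5 lay there, with a difference of -11.4 points, and 17 lay in the last 1000 bp, with 3.52 points.

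The tile from 28020001 to 28022000, the last one before DNAH2, was the only one to be a DMR in 4 traits (SCE, BDE, CCR and SCR) and had the largest SD among tiles listed in all 18 bulls, at 35.5 points between graded bulls. Its values ran from 3.03% in L03, 9.23% in L09 and 12.9% in H09 to 100% in H02, H07 and L08. Yet its first 1000 bp had 90% or more in each of the 17 bulls that list a position there, and its last 1000 bp had 3.33% or less in each of 12 bulls. L03 listed positions in the latter only, and H02, H05, H07, L05, L08 and H01 in the former only. The trait differences of 15.8 to 26.6 points over all positions were -1.90 to 5.03 points at matched positions. The next most variable tiles also differed less at matched positions. The tile from 28386001 (SD 30.7, 0% in L09 to 95.5% in H07) had a GL difference of -31.4 points over all positions and 2.46 at 6 matched positions. The tile from 28266001 (SD 25.1, 1.67% in H04 to 100% in L08) had a CCR difference of -45.0 points over all positions and -4.74 at 9 matched positions.

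Among the 6 DMRs without overlap between GL groups, 1 was a loss and 5 were gains, all beyond MYH10. The loss was the tile from 29520001 to 29522000. It had 82.4% in H03, 50% in H09, 86.7% in L03 and 84.8% in L05, against 93.0, 94.3, 92.7 and 94.3% in H02, H05, L01 and L07, a difference of -12.1 points (logistic regression, q = 8.30e-05). The 3 largest gains were tiles from 29418001 (17.1 points, q = 1.58e-06), 29414001 (11.8, q = 6.99e-07) and 29590001 (9.79, q = 4.81e-05). In the tile from 29418001 the high-GL bulls had 96.2, 96.4, 100 and 98.5% (H03, H09, L03, L05) and the low-GL bulls 83.6, 86.8, 68.6 and 95% (H02, H05, L01, L07). At matched positions the differences were -14.6 and 22.0 points for the tiles from 29520001 and 29418001, but 1.19 and -0.501 for those from 29414001 and 29590001.

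All 6 GL tiles called at matched positions lay within 2 groups of neighbouring tiles beyond MYH10, and they were singled out after their values were seen. Gains were called in the tiles from 29418001 (22.0 points, q = 0.00270) and 29426001 (10.9, q = 0.000176). Losses were called in the tiles from 29506001 (-25, q = 2.05e-07), 29508001 (-30.2, q = 3.46e-09), 29520001 (-14.6, q = 0.000363) and 29522001 (-8.22, q = 0.00436). These q values, too, take reads as independent. Single bulls moved some of the differences over all positions. Without L01, the gains went from 17.1 to 9.74 points (29418001) and from 9.79 to 2.25 (29426001). The loss at 29508001 went from -17.0 to -10.6 without H02 and to -11.1 without L05, and the loss at 29522001 from -7.51 to -4.81 without L05.

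Each of these 6 tiles held single CpG positions at which bulls fell far apart. Positions listed in at least 6 bulls, with 1 bull or more at 10% or less and 1 or more at 80% or more, were called split positions, a definition made after the values were seen. The 839 tiles held 148 of them among 10904 positions listed in at least 6 bulls (1.36%), against 1.92% in the rest of BTA19 and 2.03% over the autosomes. They fell in 108 tiles, 96 of them high tiles, and in 12 of the 55 GL DMRs. Without their split positions, the 4 losses changed from -25 to 1.35, from -30.2 to -22.0, from -14.6 to -3.87 and from -8.22 to -1.07 points, and the gains from 22.0 to 13.6 and from 10.9 to 9.80 points. These differences are given without a test, since the positions were set apart by their values.

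The tiles from 29506001 to 29524000 held 16 split positions, some of them in tiles that were not called. Some bulls kept to 1 level across those they list, and others did not. L05 had 0% at each of its 9 listed split positions, H09 at each of 6 and H07 at each of 5. H02 and L01 had 80% or more at each of 9, L06 at 13 of 15, and H08 and L04 at 12 of 14 and 12 of 13. H06 lay between 25 and 64.3% at each of 11, H03 between 23.1 and 70% at each of 8, and H05 between 30.8 and 80% at 9. H01 had 91.7% or more at each of 2. Several bulls, some of them named above, spanned wider ranges. L03 and L08 ran from 0 to 66.7%, H04 from 0 to 80%, L09 from 33.3 to 100%, and H08 and L02 from 0 to 100%, and the lowest value of L06 was 30%. Among bulls with a GL grade, the values of 10% or less came from L05 (9), H09 (6) and L03 (1), all high-GL. The other values of high-GL bulls were intermediate. Since the tiles were picked for losses in high-GL bulls and the positions for low values, this follows in part from the choice. Low-GL bulls had high values in H02 and L01 and intermediate ones in H05 and L07 (25 to 56.3% at 3). Bulls without a GL grade also had values of 10% or less, with 5 in H07, 4 in H04 and 1 each in H08, L02 and L08. Together with H06, L04 and L06, which have no GL grade either, these bulls covered the same levels. The other positions of these tiles listed in at least 6 bulls had a median per bull of 91.3 to 100%, including 92.3% in H09 and 100% in L05, which were at 0% at their split positions. Low values were not limited to split positions. The lowest value at the other positions was 9.09% in H09 and 0% in the other 7 GL bulls. The mean of the other positions was 66.5% in L03, 70.3% in H03, 79.5% in H09 and 86.6% in L05, against 78.7 to 84.8% in the 4 low-GL bulls. These means rest on different positions in each bull, from 33 in H09 to 67 in L01, and were not tested. At matched positions without the split ones, the 4 loss tiles differed by 1.35, -22.0, -3.87 and -1.07 points.

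Individual positions show the pattern. At 29508505, 12 bulls list a value, which was 0% in L05 and H04, 23.1% in H03, 30.8% in L03, 40% in H05, 50% in L08, 80% in L01 and L06, 87.5% in L04, 88.2% in H08, 90% in L02 and 90.9% in H02. At the position 29523727 the values were 0% in H07, H09 and L05, 46.2% in L08, 60% in H06, 66.7% in L03, 83.3% in L06, 92.3% in L04 and 100% in H02, H08 and L01. The opposite strand of the same CpG, 29523728, had 0% in H07, 25% in L07, 46.7% in H03, 66.7% in L08 and 90.9 to 100% in H02, H08, L01, L04 and L06. The order of bulls differed at other positions. At 29517014 it was 80% in H04 and 0% in L02, and at 29506448 it was 0% in H08, H09, L03, L05 and L08, 50% in L06 and 100% in L01 and L04. Bisulfite reads do not separate an unmethylated cytosine from a thymine in a bull's own DNA, so a value of 0% at a single position cannot be told apart from a change of that base in these files.

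**Figure D5:**
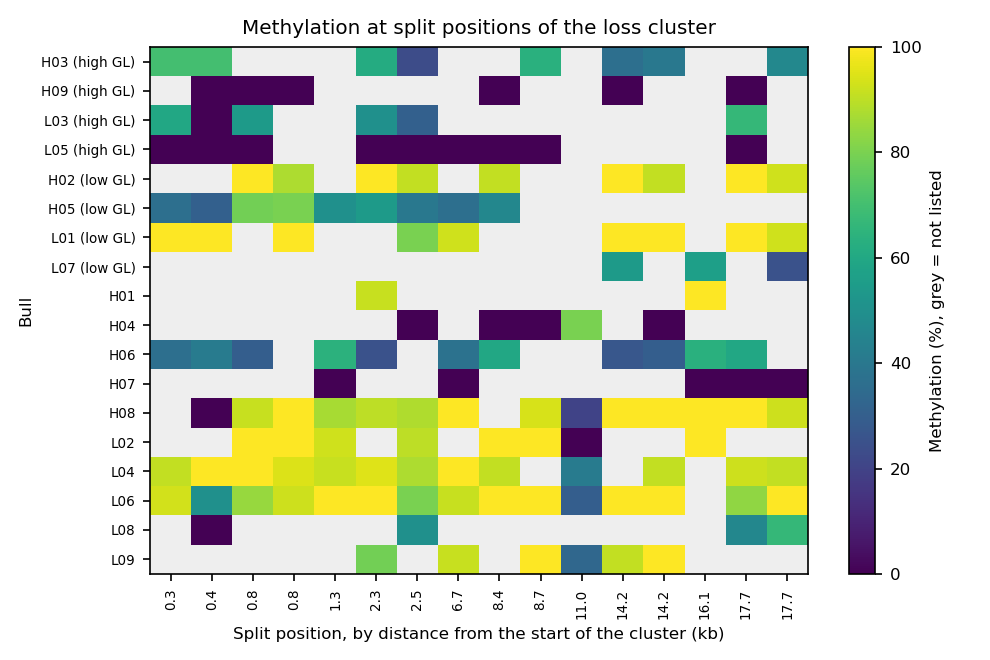
Methylation (%, colour scale) of 18 bulls (rows, high-GL, low-GL and other bulls) at the 16 split positions of the tiles from 29506001 to 29524000 (columns, by distance from the first base in kb), with grey for positions not listed. L05, H09 and H07 are at 0% at every listed position, H02 and L01 at 80% or more, and H06 in between.

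Bulls also lay apart in the tiles from 1 called gain to the other. The tiles from 29418001 to 29428000 held 5 split positions. The called tiles from 29418001 and 29426001 held 1 and 2 of them, and the rest lay in tiles that were not called. Over the 5, L02 had 10% or less at 5 of 5, L04 0% at 4 of 4 and L01 0% at its only one. H09 had 84.6% or more at 4 of 4, and H04 and L05 87.5% or more at each of 3. Other bulls did not keep to 1 level, as H08 ran from 0 to 93.8% and L06 from 11.8 to 100%, over 4 positions each. At 29418419 the values were 0% in L01, L02 and L04, 63.6% in H05, 93.8% in H08, and 100% in H04, H09 and L06. The other positions there had a median per bull of 97.4 to 100%, but some of their values were low. Among low-GL bulls the lowest was 0% in L01, 31.25% in H05, 58.3% in H02 and 90% in L07. It was 78.6 to 90% in the high-GL bulls, and 0% in L04 and L09, which have no GL grade. This was not tested.

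Of the 12 calls at matched positions for the other 4 traits, 6 were in tiles with a split position. The BDE tile from 29732001 differed by 45.9 points at 6 matched positions (q = 1.83e-09) and by -0.977 over all positions, and it held 3 split positions. The tile from 29520001 was called for BDE as well, with a gain of 19.2 points at 5 matched positions, but it differed by 1.37 points over all positions and was no DMR for BDE. GL and BDE share L03, H05, H09 and H02, with L03 in both high groups, H05 in both low groups, and the other 2 in opposite groups. For CCR, 5 of the 7 called tiles held no split position. They were losses at 27844001 (-10.4 points), 29020001 (-9.08) and 29080001 (-7.31) and gains at 28854001 (7.32) and 29462001 (9.11), all in high tiles. High and low bulls did not overlap over all positions in the first and the third of these losses. With 3 bulls against 3, that held for 71 of the 624 tested CCR tiles (11.4%), near the share of 0.1 that arrangements of bulls alone give. The share over the genome is not given for CCR. The SCE call (29614001, 12.9 points) and the SCR call (29314001, 10 points) were both gains in tiles beyond MYH10.

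Both strands of a CpG gave similar values in each bull. Over CpGs with both positions listed in the window (37 in H01 to 8122 in H08), the median absolute difference between strands was 4.17 to 8.33 points per bull, and no bull had more than 0.348% of pairs differing by over 50 points.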

How the data were processed

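Sperm methylomes of 18 Holstein bulls were used. Per the labels and the study's methods, the authors checked reads with FastQC 0.11.2, trimmed them with Trim Galore 0.4.0, mapped them to UMD 3.1 with bowtie2 and extracted methylation with Bismark 0.14.5. For each CpG position with 10 or more reads, the authors deposited the methylation level as a percent. For 6 bulls the authors also deposited the count of reads per position, from 10 to 29 in these tiles, and for the other 12 no depth is listed, although a count had been assumed for all. A position thus stood for 10 reads in all tests except those of SCR, which used the listed counts. At matched positions, 10 reads were assumed for SCR as well. Coordinates of genes and lead variants came from the study's supplement.

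Tiles were tested over the whole genome by a logistic likelihood ratio test without overdispersion. The share of tiles without a difference, needed for q values, was the median slope of the p-value distribution over 10 segments from 0.1 to 1, a simplified SLIM. Alternatives were a difference over 10 points, Benjamini-Hochberg adjustment, an F test with overdispersion (not under 1), 13 reads per position (10 for SCR), at least 3 positions per tile, a Cochran-Mantel-Haenszel test at matched positions, limma 3.58.1 under R 4.3.3 (log2 of methylated over unmethylated reads, from the deposited percents, after adding 1 read to both), and each bull left out. For CCR and SCR, strata of bulls with the same number in their names were added after the data were seen. Means per bull were compared by exact permutation, two-sided, using NumPy 2.4.6 and SciPy 1.17.1 in Python 3.11.15, and matplotlib 3.10.9 drew the figures. The logistic test, the F test and the test with strata of bull numbers were run on simulated reads, which had no spread between bulls. The exact tests were checked on short made-up series. The test at matched positions and limma were not run on simulated data.

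Named tiles were the 3 largest losses and gains among GL DMRs without overlap between groups, the 3 tiles nearest the lead variant on each side, the 3 lowest and 3 most variable tiles listed in all bulls, DMRs in at least 4 traits and runs of at least 3 low tiles. The window, the lists and the tests were chosen with earlier results of these data known. No genome of the files' build was used here, and no sequence is shown.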

Additional observations from a re-analysis of the deposited data

Results flagged for a closer look

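In the named tiles and the window mean, 53 groups of 4 bulls were examined for a bull whose gap to the nearest of the others exceeded Dixon's critical value, which chance passes in about 1 in 20 groups, and 4 values did. In the tile from 28614001, the high-GL bull L03 had 90%, from 1 position, and the other 3 high-GL bulls 19.8 to 25.7%. In the tile from 29520001, the high-GL bull H09 had 50%, from 2 positions, and the others 82.4 to 86.7%. In the tile from 29590001, the high-GL bull L05 had 92.4% and the others 99.1 to 100%. In the tile from 29508001, the low-GL bull H05 had 64.5%, from 4 positions, and the others 95 to 100%.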

How the results depend on the processing

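The counts of DMRs moved with the settings. At 13 assumed reads per position in place of 10 they rose to 72 (GL), 31 (SCE), 76 (BDE) and 82 (CCR), or 11.5, 8.14, 13.5 and 13.1% of tested tiles against 12.2, 10.1, 11.6 and 15.2% in the genome. At 10 assumed reads in place of the listed counts, SCR had 29 (7.51%, genome 6.05%), so SCR and the other traits rest on different depths. With a difference over 10 points they were 36 for GL, 14 for SCE, 40 for BDE, 39 for CCR and 27 for SCR (5.75, 3.67, 7.08, 6.25 and 6.99% of tested tiles, against 4.9, 4.65, 5.53, 7.09 and 5.64% in the genome). With at least 3 positions per tile and bull they were 22 (GL), 6 (SCE), 23 (BDE), 31 (CCR) and 13 (SCR), of 375, 151, 300, 365 and 161 tiles tested (5.87, 3.97, 7.67, 8.49 and 8.07%, against 8.77, 6.63, 8.15, 11.4 and 9.33% in the genome). At matched positions they were 6 (GL), 1 (SCE), 3 (BDE), 7 (CCR) and 1 (SCR), and under the F test and limma 0 in all 5 traits. The matched SCR count assumes 10 reads, as does the SCR count of 29. Leaving out 1 bull gave 16 to 43 for SCE and 29 to 72 for SCR, each highest without H01, with 658 and 664 tiles tested. It gave 40 to 63 for GL, 46 to 65 for BDE and 57 to 76 for CCR. As shares these were 6.38 to 9.77% for GL (genome 7.84 to 9.12%), 4.15 to 7.47% for SCE (6.17 to 6.8%), 7.97 to 10.03% for BDE (6.93 to 7.79%), 9.06 to 12.2% for CCR (8.53 to 16.9%, both highest without H08) and 7.29 to 12.2% for SCR (8.47 to 9.38%). The cause was otherwise not tested.

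For GL, the mean difference of the window was -0.703 among bulls without listed coverage only. It changed sign at positions listed in every bull (0.748), for the median over tiles (0.221) and among bulls with listed coverage only (0.182). For SCE it did so with at least 3 positions (-0.532) and for the median over tiles (-0.0431), for SCR at positions listed in every bull (0.372), and on leaving out 1 bull for SCE (-0.394 to 0.265, with -0.146 without H07 and -0.216 without H01) and BDE (-0.307 without H09, to 0.656). Leaving out 1 bull also gave -0.508 to -0.174 for GL (nearest 0 without H09), -1.54 to -0.741 for CCR and -0.535 (without L03) to -0.0123 (without L02) for SCR. With at least 3 positions the GL difference was -0.0157 and that of SCR -0.0292. The cause was not tested. Only GL could reach p under 0.05, and it did not. The differences between the window and the rest of BTA19 and between the stretch from DNAH2 to NDEL1 and that beyond MYH10 kept their direction and stayed past the threshold under every alternative run, as did that of the stretch before DNAH2 under 1 alternative, chosen after the data were seen. At matched positions 6 named tiles changed sign for GL. Those from 28386001 (-31.4 to 2.46) and 29590001 (9.79 to -0.501) were GL DMRs, and the others were 28266001 (-6.12 to 1.29), 28378001 (-4.04 to 1.73), 28614001 (4.25 to -0.203) and 28808001 (0.839 to -0.687).

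The high and low bulls of CCR and SCR carry the same 3 numbers in their names, although they are different animals, and other traits share at most 1. With that number as a replicate block, added after the data were seen, the CCR count was 67 instead of 65 (10.7%, genome 13.1% instead of 11.1%) and the SCR count 36 instead of 41 (9.33%, genome 8.15% instead of 8.68%), and the mean differences stayed at -1.08 and -0.307 points (exact sign permutation p = 0.5 each, smallest possible 0.25). Same-numbered bulls did not deviate together, with correlations across tiles from -0.146 to 0.0134 (CCR) and from -0.0053 to 0.0856 (SCR). High bulls correlated best with their own number in 0 of 3 (CCR) and 1 of 3 cases (SCR). Depth is listed for 6 bulls only, and H01 limits SCE and SCR to 381 and 386 of the 839 tiles.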
